A study of Mus musculus with 8 samples.

Results

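The 78 genes described here are the single-exon protein-coding genes of the mouse that were well measured in R1 mESCs after knockdown (KD) of *Eftud2*. They were chosen from the 55385 genes of the count table in 4 steps. A gene had exactly 1 exon entry in the annotation, was protein-coding, lay off the mitochondrial chromosome, and had at least 2000 counts summed over the 8 libraries. Of 1167 single-exon protein-coding genes, 533 had no count in any library, 550 had counts below the limit, and 6 were left out by their symbols as histone-like, Sox or Fox genes. The rule therefore used the level of a gene over all libraries, so that levels below are a description. Just above the limit lay *Sowahc* with 2001 and *Tmem30b* with 2029 summed counts, and just below it *Mocs3* with 1923 and *Otud1* with 1908. All 78 members passed the expression filter of the test, but 6 of them would have fallen under the limit if the libraries of their lowest group had stood for all 8. These were *Ccdc8*, *Gm5580*, *Gm5617*, *Mageh1*, *Sowahc* and *Tmem30b*, and since they met the limit only through the groups where their counts were higher, the choice of members bears on their differences. Their values below are a description, given with no test. The overall counts of called members are also given without them, and the other counts of members include them.

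The study asked what a partial loss of *Eftud2*, a GTPase of the U5 small nuclear ribonucleoprotein, does to mESCs. R1 is a mouse embryonic stem cell line, labelled WT, that was grown in N2B27 medium with 2i and LIF on poly-L-ornithine and laminin. Cells were infected on 2 consecutive days with lentivirus carrying shRNA1 (3 libraries), shRNA2 (3 libraries) or the non-targeting nt-shRNA (2 libraries), and then selected with puromycin for 3 days. All groups thus shared the infection and the selection, and the hairpins against *Eftud2* differ in their target, the 3′ UTR for shRNA1 and the coding sequence for shRNA2.

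Most mouse genes are transcribed as precursors from which the spliceosome removes introns, and the U5 particle that holds EFTUD2 takes part in each such reaction. Single-exon genes need no intron removal to give their mRNA, although their transcripts are capped, cleaved and polyadenylated like others. Many of them are retrogenes, copies of spliced mRNAs that were inserted back into the genome, and others belong to families that are compact by nature, such as the Jun and immediate-early factors, the Frizzled receptors or the inducible Hsp70 chaperones.

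The libraries held between 19569525 and 29871048 counts, so that 3 counts stood for 0.105 to 0.148 counts-per-million (CPM). Levels of single genes below are CPM scaled by the TMM method of edgeR. Sums over marker lists and over the receptor genes are by library total. *Eftud2* itself was at 262 and 256 CPM with nt-shRNA, 232, 229 and 225 CPM with shRNA1 and 198, 202 and 235 CPM with shRNA2, below both controls in each KD library. Its log2 fold change was -0.18 with shRNA1 (adjusted p = 0.0514 by the quasi-likelihood test of edgeR) and -0.29 with shRNA2 (adjusted p = 0.00122). By qPCR the paper reported a larger loss of *Eftud2* RNA than these counts give, and more of it with shRNA2 than with shRNA1. It also reported less EFTUD2 protein by western blot with either hairpin. The reason for the gap between qPCR and counts was not tested. All 12 embryonic stem cell markers were measured, and their summed level, by library total, was 7118 and 7177 CPM with nt-shRNA and 7772 to 8310 CPM in the KD libraries, with 6 called higher and 3 lower with shRNA1, and 7 higher and 3 lower with shRNA2. Trophectoderm markers summed to 207 and 219 CPM with nt-shRNA, 183 to 206 CPM with shRNA1 and 158 to 173 CPM with shRNA2, where 4 of the 7 tested were called lower. Endoderm markers summed to 150.4 and 169.9 CPM with nt-shRNA, 128 to 175 CPM with shRNA1 and 97.1 to 112 CPM with shRNA2, where 2 of the 6 tested were called lower. Neural markers lay between 68.4 and 83.3 CPM over all libraries. Of the 6 tested, 3 were called higher and 1 lower with shRNA1, and 2 higher and 1 lower with shRNA2. Fibroblast markers summed to 23.3 and 26.2 CPM with nt-shRNA, 26.0 to 29.4 CPM with shRNA1 and 18.3 to 22.1 CPM with shRNA2. Of the 5 tested, 1 was called higher and 0 lower with shRNA1, and 1 higher and 2 lower with shRNA2. None of these markers was at 0 in every library. A list of 31 two-cell-stage genes, none of them a member, moved with the KD as well, from 53.8 and 62.2 CPM with nt-shRNA to 210 to 269 with shRNA1 and 154 to 194 with shRNA2, and its 24 measured genes were called higher in 24 cases with shRNA1 and in 22 with shRNA2. The part of any such cells in the results below was not tested. In bulk RNA, fewer cells that express a gene and less of its RNA per cell cannot be told apart.

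The members' levels spanned a wide range. Per kilobase of exon, the members ran from 1.76 CPM for *Mars2* to 364 CPM for *Pcbp1*, with a median of 13.3 CPM. After *Pcbp1*, which encodes a poly(rC)-binding protein, the highest levels per kilobase were those of *Hnrnpa0* (127 CPM), the ribosomal protein gene *Rpl10l* (113 CPM), the tight junction gene *Cldn4* (84.0 CPM) and *Ier2* (57.0 CPM). For scale, the 1972 olfactory and vomeronasal receptor genes, which mESCs are not known to use, gave 0.00433 to 0.00771 CPM per kilobase. That level was 0.00433 and 0.00453 with nt-shRNA and 0.00609 to 0.00771 in the KD libraries. Of these genes, 26 passed the expression filter, with 10 called higher and 1 lower with shRNA1, and 14 higher and 1 lower with shRNA2. Where their reads come from, and the part of such reads in the results below, was not tested.

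More members rose than fell with each hairpin against *Eftud2*. With shRNA1, 20 members were called higher and 9 lower than with nt-shRNA, where 13.8% of all 17445 genes tested were called higher and 17.1% lower. With shRNA2 the members called were 40 higher and 9 lower, against 27.2% and 28.7% of all genes. A call is a Benjamini-Hochberg adjusted p-value under 0.05 in edgeR's quasi-likelihood test, fitted and adjusted over all genes. As shares of the members, these counts are 25.6% higher and 11.5% lower with shRNA1, and 51.3% higher and 11.5% lower with shRNA2. Among 8979 multi-exon protein-coding genes chosen by the same count limit and within the members' range of expression, 13.2% were higher and 23.97% lower with shRNA1, and 29.1% were higher and 35.1% lower with shRNA2. Members were thus called about as often as multi-exon genes in all, 37.2% against 37.2% with shRNA1 and 62.8% against 64.2% with shRNA2, but in another balance of directions. Without the 6 members that had a group under the count limit, a check added after seeing the data, shRNA1 had 19 higher and 6 lower, shRNA2 had 38 and 6, and the direct comparison of the hairpins had 27 and 7.

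The median log2 fold change over the members was 0.093 with shRNA1 and 0.24 with shRNA2. Over the multi-exon genes of like expression it was -0.043 and -0.024, and over all genes tested -0.0069 and 0.0040. Taken one KD library at a time, the median of the members was 0.041, 0.13 and 0.10 in the shRNA1 libraries and 0.22, 0.23 and 0.19 in the shRNA2 libraries, against -0.046 to -0.024 for the multi-exon genes in these 6 libraries. The SD of the median between KD replicates, each set against the same control mean, was 0.046 for shRNA1 and 0.019 for shRNA2. It leaves out the spread between the 2 controls. With 1 of them left out, the members' shRNA2 median was 0.20 without nt-shRNA replicate 1 and 0.27 without replicate 2. The members also took a larger share of the counts, 0.352% and 0.362% of the nt-shRNA libraries, 0.385%, 0.412% and 0.405% of the shRNA1 libraries and 0.425%, 0.442% and 0.411% of the shRNA2 libraries. No KD library overlapped the controls in either measure.

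**Figure D1:**
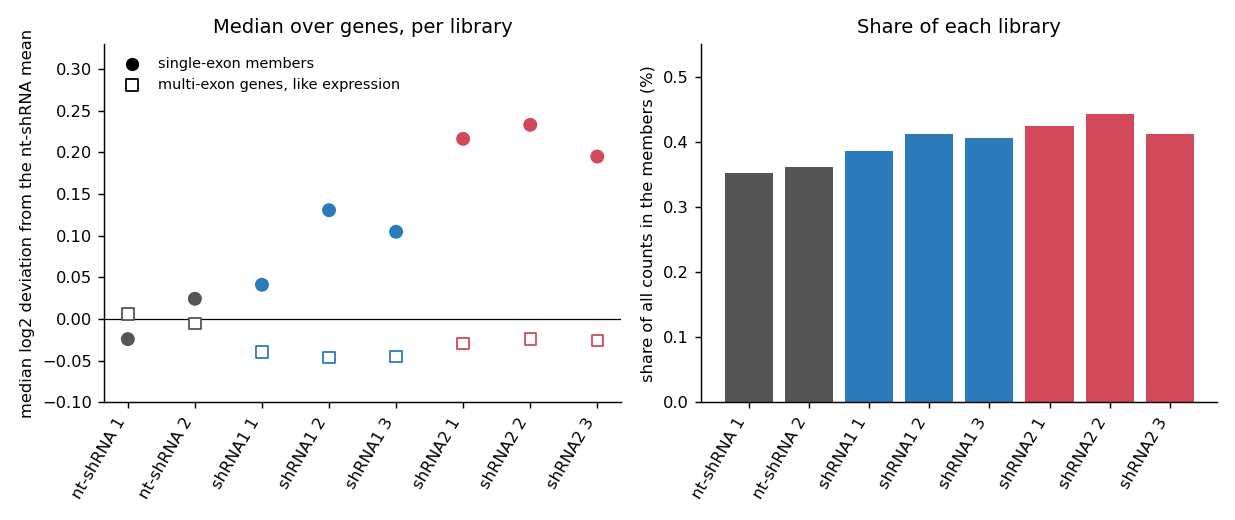
The left panel plots, for each of the 8 libraries, the median log2 deviation from the nt-shRNA mean over the 78 single-exon members (filled circles) and over 8979 multi-exon genes of like expression (open squares), and the right panel the percentage of all counts that fell in the members. The members' median lies between 0.041 and 0.23 in the KD libraries and the multi-exon median below 0 in each of them.

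Scaling moved the balance for shRNA1. Where libraries were scaled by their totals alone, without TMM, 34 members were higher and 4 lower with shRNA1, in place of 20 and 9, and over all genes 4101 were higher and 1713 lower, in place of 2407 and 2981, while the median of all genes shifted to 0.11 and that of the members to 0.21. With shRNA2 the same scaling gave 47 higher and 9 lower members, beside 5850 higher and 4077 lower of all genes, at a median of 0.33 for the members and 0.093 for all genes. Relative to all genes, the members' median was therefore higher by about the same amount under either scaling, and each direction below is given on the TMM scale.

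The members differed between hairpins as well. Tested directly, shRNA2 had 27 members higher and 9 lower than shRNA1, where 16.9% of all genes were higher and 18.7% lower, and the median log2 difference was 0.15 for the members and 0.0094 for multi-exon genes of like expression. Both comparisons with nt-shRNA share the same 2 control libraries, so that their calls are not independent. With that limit, 19 members were called higher with both hairpins and 6 lower with both, beside 11.6% and 15.1% of all genes, and 0 members were called in opposite directions, beside 0.0401% of all genes. The 19 include *Gm5580* and the 6 include *Ccdc8* and *Gm5617*, which had a group under the count limit and are a description.

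Counts of members whose libraries did not overlap gave a like picture. All shRNA1 libraries lay above both controls for 35 members and below both for 12, against 26.6% and 30.2% of all genes. All shRNA2 libraries lay above the controls for 46 members and below for 13, against 35.4% and 36.0%. Between the hairpins, 34 members were higher in each shRNA2 library than in each shRNA1 library and 10 were lower, against 23.6% and 24.1% of all genes. Every called member was separate in this sense in its comparison.

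Not all calls held when a single library was left out. With shRNA1, 12 of the 29 called members kept the call in every such fit. Beside *Gm5580*, whose values are a description, they were *Hspa1b*, *Rhob*, *D1Pas1*, *Eid1*, *Klhl9*, *Exoc8*, *Mgat2* and *Rpl10l* of the 9 higher, and *Fzd7*, *Rpl9-ps6* and *Cldn4* of the 3 lower. With shRNA2, 37 of 49 kept the call, 29 higher and 8 lower, and in the direct comparison 26 of 36, 20 higher and 6 lower. The nt-shRNA group has only 2 libraries, and the fit without its replicate 1 called 9 members higher and 5 lower with shRNA1, beside 1248 higher and 1700 lower of all genes.

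The members whose shRNA1 call was lost are given here with the highest adjusted p that leaving out 1 library gave in edgeR's quasi-likelihood test. Without nt-shRNA replicate 1 this was 0.0594 for *Cenpb*, 0.0722 for *Cstf2t*, 0.0514 for *Haspin*, 0.243 for *Imp3*, 0.318 for *Map10*, 0.218 for *Prr23a3*, 0.303 for *Purb*, 0.192 for *Rap2b*, 0.146 for *Sephs2* and 0.101 for *Sf3b5*. Without nt-shRNA replicate 2 it was 0.108 for *Fbxl14*, 0.0884 for *Fem1a*, 0.256 for *Irf2bpl* and 0.243 for *Otud6a*. Calls were also lost for *Ccdc8*, *Gm5617* and *Mageh1*, whose values are a description. These 17 calls rest on few libraries, and the values of their genes below should be read with that. With shRNA2 the corresponding values were, without nt-shRNA replicate 1, 0.254 for *Gm18336*, 0.132 for *Irf2bp1*, 0.159 for *Kbtbd7*, 0.194 for *Riox1*, 0.0568 for *Sephs2*, 0.377 for *Tspyl1*, 0.303 for *Ubqln2* and 0.176 for *Zfp830*. Without nt-shRNA replicate 2 they were 0.0513 for *Ier2* and 0.0698 for *Ier5l*, and *Ccdc8* and *Sowahc* lost the call as well. In the direct comparison of the hairpins the call was lost without shRNA1 replicate 3 for *Eid1* (0.191), *Exoc8* (0.127), *Fzd7* (0.109), *Hspa1b* (0.0889) and *Prr23a3* (0.123), without shRNA1 replicate 1 for *Gm18336* (0.0957), without shRNA1 replicate 2 for *Gm5580*, and without shRNA2 replicate 2 for *Hexim1* (0.0860), *Rnf113a2* (0.0600) and *Rrs1* (0.0856). Leaving out 1 library moved 8 of the called fold changes by more than 1.5 times. With shRNA2 these were *Gm18336* and *Sowahc*, given below, *Tspyl1* (from 0.18 to 0.11) and *Ubqln2* (from 0.21 to 0.13), all but *Sowahc* without nt-shRNA replicate 1. With shRNA1 they were *Ccdc8*, given below, and *Purb* (from 0.22 to 0.15, without shRNA1 replicate 2), and between the hairpins *Eid1* (from 0.27 to 0.17, without shRNA1 replicate 3) and *Hexim1* (from 0.25 to 0.15, without shRNA2 replicate 2).

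Calls were gained as well. Of the 25 members called with neither hairpin, 18 were called in at least 1 alternative fit, and 7 in none, which were *0610012G03Rik*, *Ado*, *Ccnq*, *Gm4737*, *Ndn*, *Rps27rt* and *Znhit2*. Offsets for GC content, added after seeing the data, gained 8 calls with shRNA1, for *Eid2*, *Epop*, *Fam43a*, *Irf2bp1*, *Rbmxl2*, *Rnf113a2*, *Sfn* and *Tlnrd1*, at log2 fold changes from 0.18 to 0.32. They gained 11 with shRNA2, for *Bloc1s4*, *Eid2*, *Fam43a*, *Hnrnpa0*, *Imp3*, *Otud6a*, *Pcbp1*, *Rrs1*, *Tbcc*, *Tlnrd1* and *Zcchc3*, at 0.19 to 0.36, and all gained calls were higher. The same offsets lost the shRNA1 calls of *Fbxl14*, *Gm5617*, *Imp3* and *Purb* and the shRNA2 calls of *Sowahc* and *Tspyl1*. Where a member is described below as not called, this is in the fit with TMM scaling alone.

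**Figure D2:**
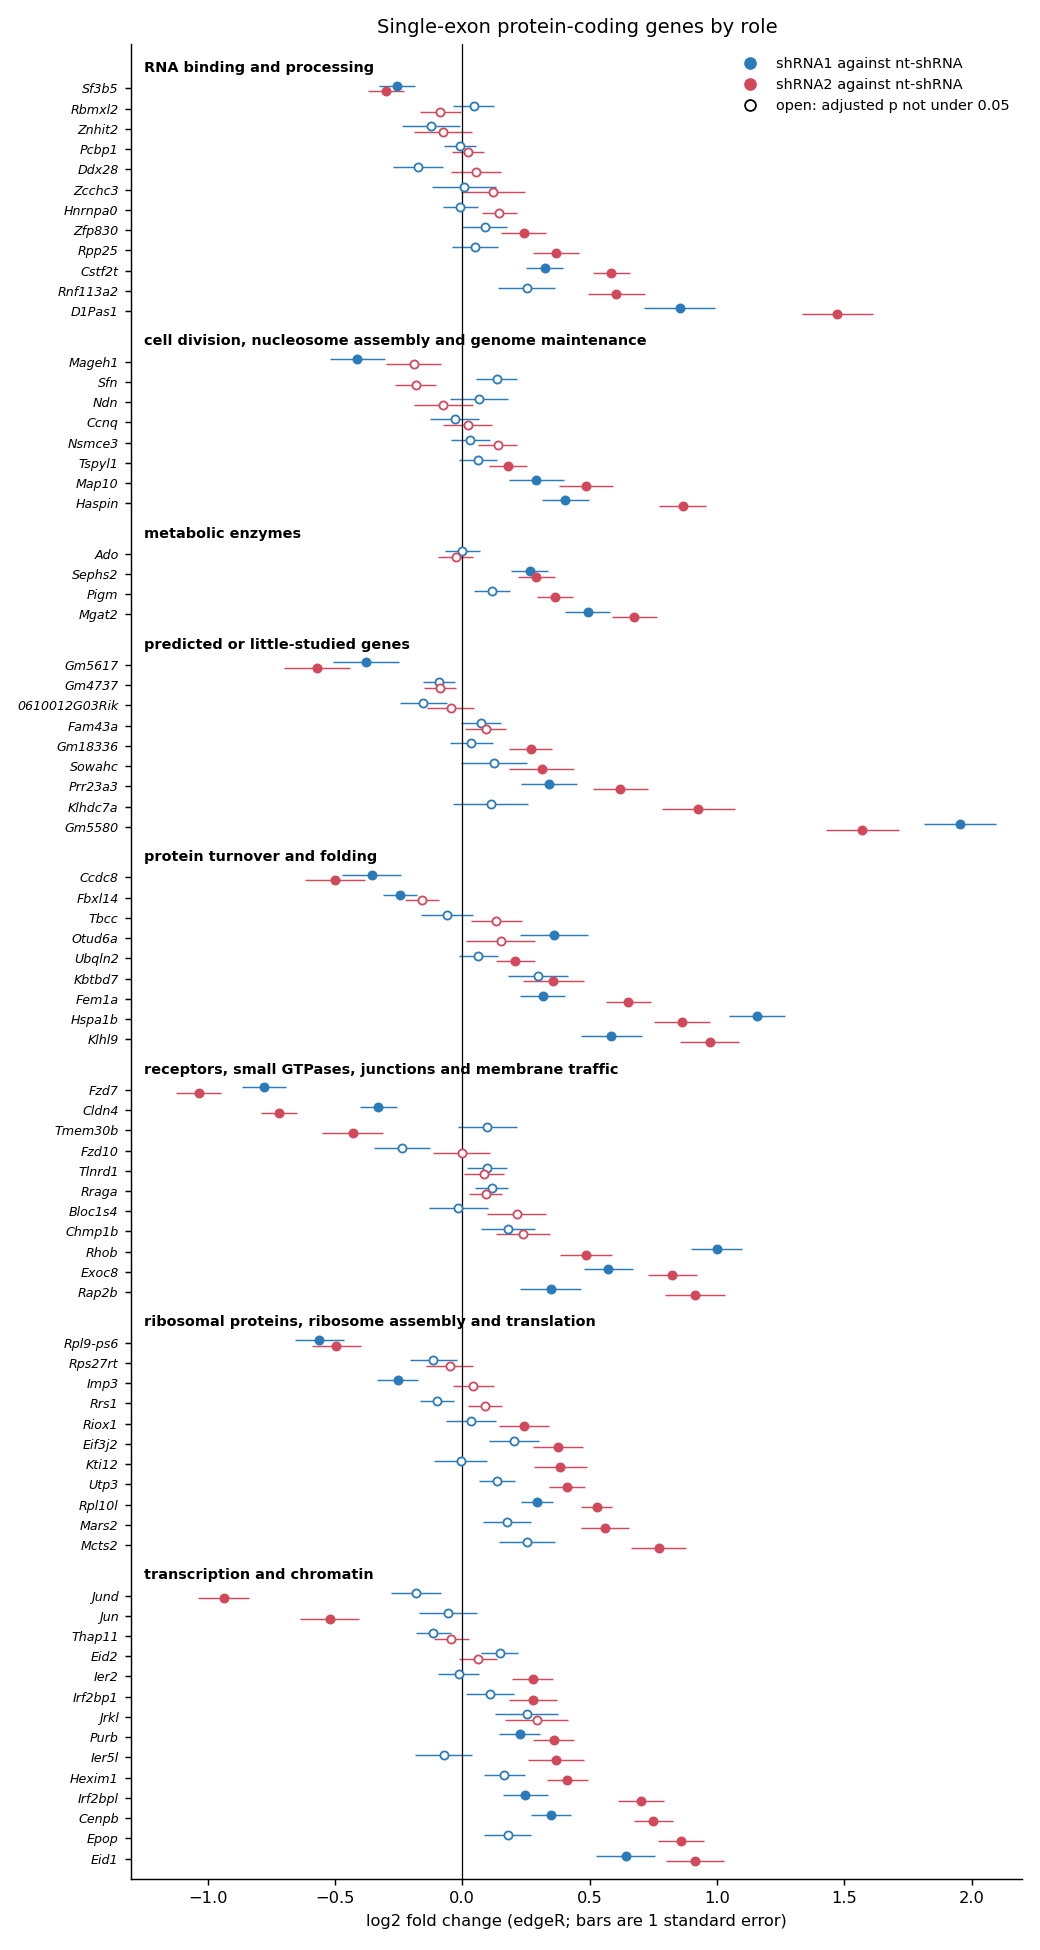
Log2 fold changes of all 78 members against nt-shRNA, grouped by role, for shRNA1 (blue, n = 3) and shRNA2 (red, n = 3), with bars of 1 standard error and filled points for calls at an adjusted p under 0.05. Red points lie to the right of 0 for 57 members and blue points for 50.

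Fold change was set beside the number of exons. Protein-coding genes with the same count limit were grouped by their merged exonic blocks, the separate stretches that remain when overlapping exons are joined. With shRNA2 the median log2 fold change was 0.24 for the members, 0.087 for 253 genes with 2 blocks, and between -0.047 and -0.023 for the classes of 3 to 5, 6 to 10, 11 to 20 and over 20 blocks. With shRNA1 it was 0.093 for the members, -0.069 for genes with 2 blocks and between -0.078 and -0.011 in the other classes. Genes with 2 blocks stood between the members and the rest with shRNA2 but not with shRNA1.

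**Figure D3:**
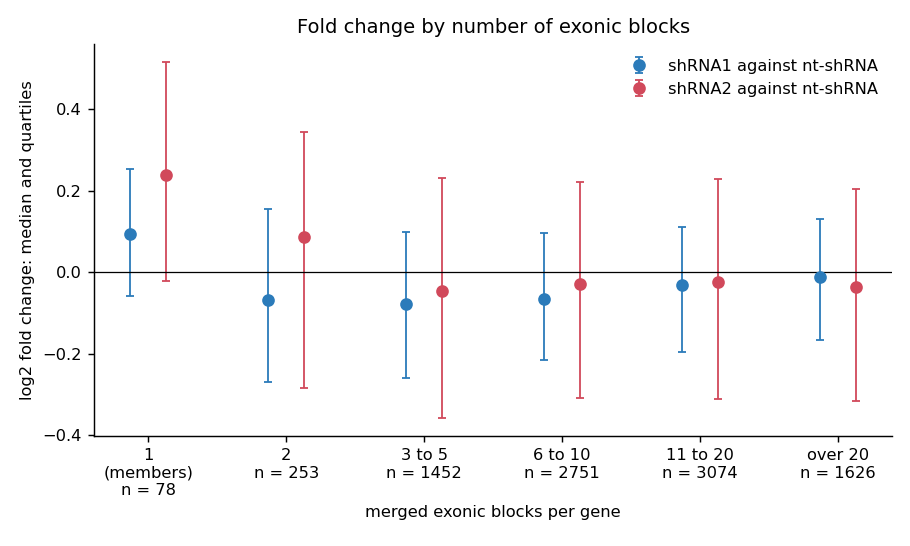
Median log2 fold change (points) with the lower and upper quartile (bars) for the 78 members and for protein-coding genes in 5 classes of merged exonic blocks, for shRNA1 (blue) and shRNA2 (red). The members' medians of 0.093 and 0.24 are the highest of their colour, and the quartiles of all classes overlap.

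Gene structure differed between the sets in more than exons. The members had a median exonic GC content of 53.4% and a median length of 2452 bases, against 49.4% and 4854 bases for the multi-exon genes of like expression, which had a median of 11 blocks. GC content moved with the fold change in both sets. Below a GC content of 53.4%, the median log2 fold change with shRNA2 was 0.36 for members and 0.025 for multi-exon genes, and at or above it 0.093 for members and -0.16 for multi-exon genes. With shRNA1 the same medians were 0.18 and 0.00093 below, and -0.0077 and -0.15 at or above. Among the 39 members below that GC content, 26 were higher and 3 lower with shRNA2, and among the 39 others 14 were higher and 6 lower. Of the multi-exon genes, 32.9% were higher and 30.3% lower below that GC content, and 20.1% were higher and 46.8% lower at or above it. With shRNA1, 14 members were higher and 3 lower below that GC content, and 6 were higher and 6 lower at or above it. The multi-exon shares with shRNA1 were 16.3% higher and 18.6% lower below it, and 5.84% and 36.8% at or above it. Members shorter than 2452 bases had a median of 0.13 with shRNA2 and the longer ones 0.31, beside -0.11 and -0.0075 for multi-exon genes split at the same length. The members' median lay above that of the multi-exon genes on each side of either split, and what GC content or length contributed was not tested further than by the offsets given at the end.

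The difference was seen at each level of expression. In 4 strata with limits at the quartiles of the members' expression, from low to high, the members' median with shRNA2 was 0.23, 0.39, 0.14 and 0.23, and that of multi-exon genes in the same strata was -0.070, -0.052, -0.035 and -0.0045. With shRNA1 the members' medians were 0.11, 0.11, 0.062 and 0.13, beside -0.021, -0.040, -0.048 and -0.044. The members' medians were the higher in all 4 strata with either hairpin.

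Some members resemble a gene with more than 1 exon entry. By nucleotide alignment of the members' coding sequences, 19 of the 78 matched a gene with more than 1 exon entry at 75% identity or more over at least 70% of their length, and are called copies here. Merged blocks do not settle whether a relative has introns, since *Kbtbd6*, the relative of *Kbtbd7*, and *Rpl9* each had a single merged block, and *Rpl9* has 8 exons in its annotated transcript. Of these 19, 13 were higher and 1 lower with shRNA2, at a median log2 fold change of 0.38, and 9 were higher and 1 lower with shRNA1, at a median of 0.25, where 27.2% and 28.7% of all genes were called higher and lower with shRNA2, and 13.8% and 17.1% with shRNA1. The other 59 members had 27 higher and 8 lower with shRNA2, at a median of 0.15, and 11 higher and 8 lower with shRNA1, at a median of 0.050, and the difference between the 19 and the 59 was not tested. Fragments with several alignments were left out of the counts, so the closest copies are the least certain.

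*D1Pas1* encodes a DEAD-box RNA helicase known from spermatogenesis, and it is an autosomal copy of the X-linked *Ddx3x*. Its coding sequence was 86.9% identical to that of *Ddx3x* with 249 mismatches over 1989 aligned columns, and the longest identical run was 44 bases, less than a read of 100 bases. The first 100 coding bases show how the copies can be told apart (capitals mark bases that differ). The *D1Pas1* bases are at chr1:186967876-186967975 on the plus strand of GRCm38, and the matching *Ddx3x* bases hold an exon junction after base 45 that *D1Pas1* lacks.
D1Pas1: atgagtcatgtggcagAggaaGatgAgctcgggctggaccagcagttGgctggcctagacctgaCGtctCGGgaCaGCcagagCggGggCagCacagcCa
Ddx3x: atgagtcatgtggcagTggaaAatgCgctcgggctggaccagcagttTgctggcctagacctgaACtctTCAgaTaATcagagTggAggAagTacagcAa

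The 17 differences in this stretch lie mostly after the junction. *D1Pas1* was at 10.2 and 12.96 CPM with nt-shRNA, 20.9, 23.7 and 18.6 CPM with shRNA1 and 30.9, 38.2 and 27.4 CPM with shRNA2, and the 3 groups did not overlap. On the log2 scale it rose by 0.85 ± 0.141 (standard error) with shRNA1, at an adjusted p of 1.5e-04 in edgeR's quasi-likelihood test, and by 1.47 ± 0.139 with shRNA2, at 5.2e-08, and shRNA2 exceeded shRNA1 by 0.62 (adjusted p = 4.9e-04). The mean of *Ddx3x* was 453 ± 4.41 CPM (SD, n = 2) in the controls and 620.5 ± 41.1 CPM (SD, n = 3) under shRNA2, which is 0.45 on the log2 scale. The helicase gene without introns thus rose by more than its relative with 14 exonic blocks, from a level that was lower by far. An exon of *D1Pas1* overlaps the gene model *Gm37912*, and reads that overlap both were not counted.

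*Mcts2* is a retrogene of the X-linked *Mcts1*, which encodes a factor of translation reinitiation, and it lies inside *H13*, on the same strand. The 2 coding sequences were 85.2% identical, with a longest identical run of 29 bases. Their first 100 coding bases differ at 16 positions, and *Mcts1* has an exon junction after base 11. The *Mcts2* bases are at chr2:152687271-152687370 on the plus strand of GRCm38.
Mcts2: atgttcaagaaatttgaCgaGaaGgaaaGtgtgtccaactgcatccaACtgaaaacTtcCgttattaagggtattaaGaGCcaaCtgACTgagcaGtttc
Mcts1: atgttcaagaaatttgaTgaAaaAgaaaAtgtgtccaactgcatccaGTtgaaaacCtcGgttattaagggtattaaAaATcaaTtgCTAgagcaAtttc

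*Mcts2* was at 15.4 and 14.1 CPM with nt-shRNA, 17.6, 18.02 and 17.04 CPM with shRNA1 and 25.8, 28.05 and 21.5 CPM with shRNA2. All KD libraries lay above the controls and the shRNA2 libraries above the shRNA1 libraries. The log2 fold change of 0.77 with shRNA2 passed the threshold (adjusted p = 7.7e-06, edgeR's quasi-likelihood test) and that of 0.25 with shRNA1 did not (adjusted p = 0.0886). In the same test, shRNA1 passed with the replicate block, at 0.32 (adjusted p = 0.0233), and with length offsets, at 0.32 (adjusted p = 0.0313). *Mcts1*, the relative with introns, averaged 25.2 ± 0.688 CPM (SD, n = 2) in the controls and 25.5 ± 0.479 CPM (SD, n = 3) under shRNA2, or 0.017 on the log2 scale. The host gene *H13* rose by 0.43 on the log2 scale with shRNA2, and reads from its introns on the same strand would be counted for *Mcts2*, which was not tested. The level of *Mcts2* per kilobase was 21.6 CPM and that of *H13* 4.71 CPM, counted on exons.

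Other copies rose where the relative did not. *Cstf2t*, the intronless form of the cleavage stimulation factor subunit *Cstf2*, was at 52.03 and 57.4 CPM with nt-shRNA, 69.01, 72.5 and 64.3 CPM with shRNA1 and 81.3, 86.1 and 79.03 CPM with shRNA2, and the groups did not overlap. It rose by 0.59 on the log2 scale with shRNA2 (adjusted p = 1.7e-06, edgeR's quasi-likelihood test), while *Cstf2* had a log2 fold change of 0.043. *Rpl10l*, a ribosomal protein copy, was at 94.1 and 90.2 CPM with nt-shRNA, at 111, 116 and 112 CPM with shRNA1 and at 135, 137 and 126 CPM with shRNA2, again without overlap. Its log2 fold change was 0.29 with shRNA1 and 0.53 with shRNA2 (adjusted p = 8.3e-07), whereas *Rpl10* had -0.24, called lower, and -0.093, not called. *Purb*, which encodes a purine-rich element binding protein, had log2 fold changes of 0.22 and 0.36, beside -0.069 and -0.064 for *Pura*.

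*Klhl9* and *Rhob* rose with both hairpins while the nearest relative with introns fell with both. *Klhl9* encodes an adaptor of CUL3 ubiquitin ligases and was at 13.2 and 16.4 CPM with nt-shRNA, 23, 24.8 and 19.3 CPM with shRNA1 and 27.9, 31.8 and 27.6 CPM with shRNA2, without overlap between groups. It rose by 0.59 and 0.97 on the log2 scale (adjusted p = 1.1e-06 with shRNA2, edgeR's quasi-likelihood test), while *Klhl13*, 81.8% identical, fell by 0.34 and 1.05. *Rhob*, a small GTPase of endosomes, was at 23.1 and 28.3 CPM with nt-shRNA, 50.5, 54.9 and 48.8 CPM with shRNA1 and 38.7, 31.3 and 37.8 CPM with shRNA2. Here the shRNA1 libraries were the highest, and the log2 fold change was 1.00 with shRNA1 (adjusted p = 8.0e-07) and 0.48 with shRNA2 (adjusted p = 4.8e-04). *Rhoc*, 78.9% identical, fell by 0.63 and 1.28.

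*Rap2b* and its relative *Rap2a* rose together. *Rap2b*, a Ras-family GTPase, rose by 0.91 with shRNA2 (adjusted p = 2.6e-06, edgeR's quasi-likelihood test) from 11.2 and 11.8 CPM with nt-shRNA to 22.97, 22.2 and 20.01 CPM, and *Rap2a* by 0.55. *Pcbp1* had a log2 fold change of 0.023 beside 0.14 for *Pcbp2*, and the GTPase gene *Rraga* and its relative *Rragb* had 0.092 and -0.076. *Ubqln2*, a proteasome shuttle factor, had 0.21 beside -0.042 for *Ubqln1*, and *Kbtbd7* had 0.36 beside 0.68 for *Kbtbd6*. *Chmp1b*, of the ESCRT machinery, had 0.24 and did not pass the threshold, beside -0.30 for *2610002M06Rik*. Differences between a copy and its relative were not tested as such.

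Some copies are too close for the counts to be trusted. *Rpl9-ps6* differs from *Rpl9* by 1 base in 576, and its first 100 coding bases, at chr19:32466452-32466551 on the minus strand of GRCm38, are the same as those of *Rpl9* spliced across the junction after base 46.
Rpl9-ps6: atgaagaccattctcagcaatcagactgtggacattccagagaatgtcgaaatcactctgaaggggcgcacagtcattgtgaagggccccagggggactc

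*Rpl9-ps6* was called lower with both hairpins, at -0.56 and -0.50, and so was *Rpl9*, at -0.34 and -0.28. *Rps27rt* is identical to *Rps27* over its 252 coding bases and had -0.11 and -0.050, neither called, while *Rps27* was called lower with both hairpins, at -0.43 and -0.35. *Gm4737* is 99.7% identical to *Ahcy* and was not called, at -0.090 and -0.088, while *Ahcy* was called lower with both hairpins, at -0.37 and -0.37. *Eif3j2* matches *Eif3j1* without a mismatch over 781 bases and rose by 0.38 with shRNA2, beside 0.26 for *Eif3j1*. *Gm5580*, which met the count limit only through the KD libraries, had the highest fold changes of all members, from 5.17 and 4.56 CPM with nt-shRNA to 18.2, 21.5 and 17.1 CPM with shRNA1 and 14, 12.9 and 16.5 CPM with shRNA2. Its log2 fold changes were 1.96 and 1.57, a description with no test, and it is 98.5% identical to *Gm8994*, which had 1.85 and 1.504, and 96.8% identical to *Eif4a3*, an RNA helicase of the exon junction complex. Which of these loci gave the reads is uncertain. Without the 19 copies, 11 members were higher and 8 lower with shRNA1.

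**Figure D4:**
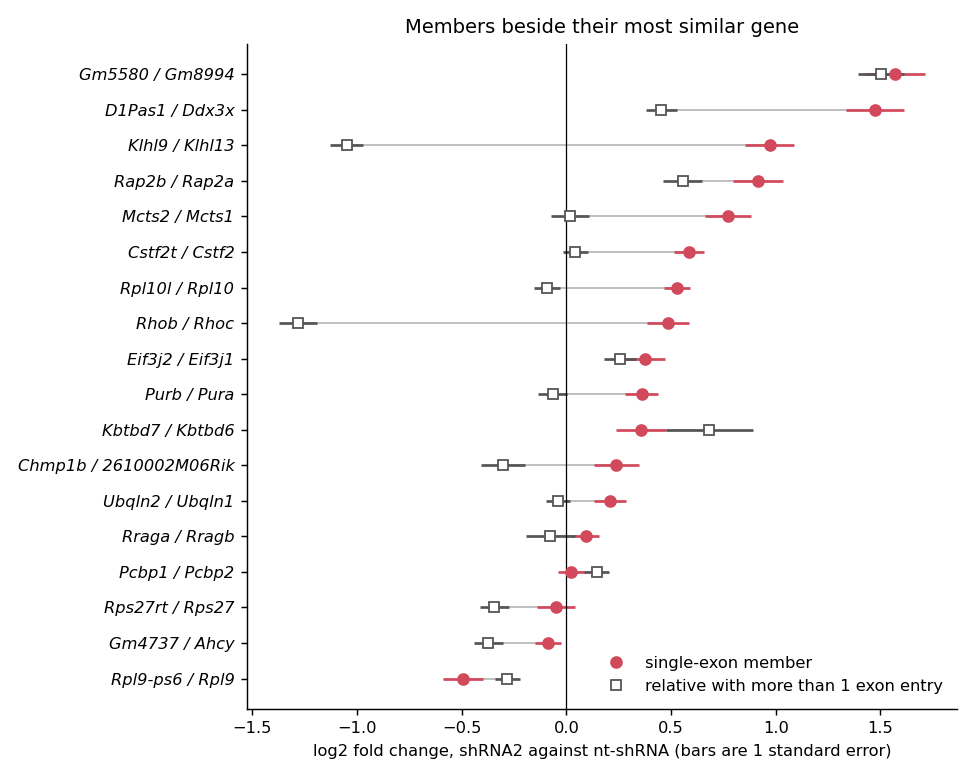
Log2 fold change with shRNA2 against nt-shRNA for each copy-like member whose relative was tested (red circles) and for its most similar gene with more than 1 exon entry (open squares), with bars of 1 standard error. *D1Pas1*, *Mcts2*, *Cstf2t*, *Rpl10l*, *Klhl9* and *Rhob* lie well to the right of their relatives, and among the closest copies *Gm5580* lies near its relative, *Rpl9-ps6* lies below its relative, and *Rps27rt* (-0.050 against -0.35) and *Gm4737* (-0.088 against -0.37) lie above theirs.

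Members with roles in transcription and chromatin were the largest group. Of 14, 9 were higher and 2 lower with shRNA2 at a median log2 fold change of 0.33, and 4 were higher and 0 lower with shRNA1 at a median of 0.16. Over all genes these shares were 27.2% higher and 28.7% lower with shRNA2, and 13.8% and 17.1% with shRNA1, and the same shares stand behind the counts of the other roles below. *Epop*, which binds Polycomb repressive complex 2 in embryonic stem cells, was at 83.7 and 78.7 CPM with nt-shRNA, 90.1, 93.1 and 92.4 CPM with shRNA1 and 146, 171 and 125 CPM with shRNA2. The shRNA1 libraries lay just above the controls and the shRNA2 libraries far above both groups. The log2 fold change was 0.86 with shRNA2 (adjusted p = 2.3e-07, edgeR's quasi-likelihood test) and 0.18 with shRNA1 (adjusted p = 0.147), and the hairpins differed by 0.68 (adjusted p = 6.1e-06). In the same test, shRNA1 passed the threshold with the replicate block, at 0.24 (adjusted p = 0.0390), and with GC offsets, at 0.32 (adjusted p = 0.0181).

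*Eid1*, an inhibitor of the acetyltransferase p300, was at 10.8 and 11.4 CPM with nt-shRNA, 18.3, 19.1 and 15.01 CPM with shRNA1 and 21.6, 21.96 and 19.4 CPM with shRNA2. It rose with both hairpins, by 0.64 and 0.91 on the log2 scale (adjusted p = 3.4e-04 and 1.8e-06, edgeR's quasi-likelihood test). *Cenpb*, which binds the CENP-B box of centromeric satellite repeats, went from 44.2 and 48.6 CPM to 55.8, 60.6 and 60.8 CPM and 75.1, 84.6 and 74.4 CPM, with 3 separate groups and log2 fold changes of 0.35 and 0.75 (adjusted p = 1.5e-07 with shRNA2). Its exon overlaps *Spef1*, on the same strand, which rose by 1.32 with shRNA2 at a level per kilobase of 0.781 CPM against 12.9 CPM for *Cenpb*. *Irf2bpl*, a zinc-finger and RING protein, rose by 0.70 with shRNA2 (adjusted p = 2.2e-06) from 92.2 and 85.6 CPM to 140.4, 165 and 128 CPM. *Hexim1*, which holds the elongation factor P-TEFb inactive, rose by 0.41 (adjusted p = 2.6e-04), and *Irf2bp1* by 0.28. *Thap11*, a regulator of embryonic stem cell growth also called Ronin, had log2 fold changes of -0.11 and -0.044, *Eid2* had 0.15 and 0.061, and *Jrkl* had 0.25 and 0.29, none of them called. With GC offsets *Eid2* was called higher with both hairpins, at 0.28 (adjusted p = 0.00594) and 0.26 (adjusted p = 0.00501), and with these and the replicate block *Thap11* turned to 0.18 with shRNA2 (adjusted p = 0.0198). *Jrkl* was called higher with shRNA2 under library size alone, at 0.38 (adjusted p = 0.0168), and with length offsets, at 0.33 (adjusted p = 0.0288).

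The Jun factors went the other way. *Jund*, a subunit of the AP-1 transcription factor, was at 71.8 and 59.4 CPM with nt-shRNA, 54.8, 53.1 and 65.2 CPM with shRNA1 and 33.8, 30.8 and 38.2 CPM with shRNA2. The shRNA1 libraries overlapped the controls and all shRNA2 libraries lay below both groups. It fell by 0.94 on the log2 scale with shRNA2 (standard error 0.101) at an adjusted p of 2.7e-07 in edgeR's quasi-likelihood test, and the difference from shRNA1 was -0.76 (adjusted p = 9.7e-06). *Jun* had 18.1 and 15.3 CPM with nt-shRNA, 14.4, 15.7 and 17.9 CPM with shRNA1 and 11.9, 12 and 10.9 CPM with shRNA2, the same order of groups. Its log2 fold change was -0.055 with shRNA1 and -0.52 with shRNA2 (adjusted p = 8.7e-04). Their exons overlap *Junos* (for *Jun*) and *Gm11175* (for *Jund*), and the counting used no strand. Other immediate-early members rose with shRNA2, *Ier2* by 0.28 from 80.97 and 80.8 CPM to 86.3, 106 and 101 CPM and *Ier5l* by 0.37 from 13.7 and 13.1 CPM to 15.7, 18.6 and 17.4 CPM.

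The wider family was mixed. Of 13 immediate-early and basic leucine zipper factors listed as intronless, 11 were tested, and 2 were higher and 4 lower with shRNA2. They included *Ier5* at -0.99, which is below the count limit, and *Mafk* at -0.86, which has 8 exon entries, so that neither is a member. *Cebpa*, *Cebpd*, *Junb* and *Maf* on that list also have more than 1 exon entry. Of 22 such factors with introns, 19 were tested, with 7 higher and 8 lower, such as *Klf4* at 1.32, *Ier3* at -1.62 and *Maff* at -1.68. Neither list had a common direction. Of 32 other intronless transcription factors, 17 were tested, with 4 higher and 0 lower with shRNA1 and 8 higher and 2 lower with shRNA2.

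The *Jun* promoter is printed for the AP-1 site it carries, in capitals, at which Jun proteins are known to act on their own gene. It covers the 250 bases before the start site at chr4:95052223-95052472, minus strand, from RefSeq (GRCm38.p6), and the site TGACATCA begins 45 bases before the start.
Jun: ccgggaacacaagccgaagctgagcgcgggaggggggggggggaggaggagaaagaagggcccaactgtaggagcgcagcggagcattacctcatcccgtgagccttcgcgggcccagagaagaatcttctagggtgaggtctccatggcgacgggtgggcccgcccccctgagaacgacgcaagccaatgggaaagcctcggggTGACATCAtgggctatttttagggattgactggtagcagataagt

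Promoter windows of 300 bases, from 250 before to 50 after the start site, matched 65 members by symbol, and for 53 of them the start lay within 100 bases of the start in the count table. On either strand, TGACATCA was in 1 of these 53 windows and in 3.62% of all 32851 windows. The GC box GGGCGG was in 64.2% of the members' windows and 35.7% of all, CCAAT in 41.5% and 37.4%, TATAAA in 7.55% and 13.6%, and TGACGTCA in 5.66% and 1.79%. The members' windows were richer in G and C, with a median of 60% against 52.7%. All windows were taken whatever the level of their gene, while the members had passed the count limit. Windows of multi-exon genes of like expression were not set beside them, so these shares cannot be tied to the single exon. The GC box was in 19 of 28 windows of members higher with shRNA2, in 4 of 4 of those lower and in 11 of 21 of the others.

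The ribosome and translation made up another role. Of 11, 7 were higher and 1 lower with shRNA2 at a median log2 fold change of 0.38, beside 27.2% and 28.7% of all genes, and 1 was higher and 2 lower with shRNA1 at a median of 0.035, beside 13.8% and 17.1%. In the direct comparison 7 were higher and 0 lower with shRNA2 than with shRNA1, beside 16.9% and 18.7% of all genes, and 11 of 11 had a positive log2 difference. *Mars2*, the mitochondrial methionyl-tRNA synthetase, was at 16.3 and 16.1 CPM with nt-shRNA, 17.9, 19.1 and 17.9 CPM with shRNA1 and 24.6, 24.9 and 22.1 CPM with shRNA2, without overlap. It rose by 0.56 with shRNA2 (adjusted p = 5.2e-05, edgeR's quasi-likelihood test) and had 0.17 with shRNA1 (adjusted p = 0.173). *Utp3*, a factor of small subunit assembly, had 75.9 and 78.3 CPM in the controls, 88.04, 84.3 and 82.2 CPM with shRNA1 and 101, 111 and 95.6 CPM with shRNA2 and rose by 0.41 with shRNA2 (adjusted p = 6.1e-05).

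*Kti12*, an Elongator-associated protein of tRNA modification, rose by 0.39 with shRNA2 from 18.3 and 18.6 CPM to 22.5, 27.8 and 22.1 CPM (adjusted p = 0.00384, edgeR's quasi-likelihood test), while the gene it lies in, *Txndc12*, fell by 0.66. *Txndc12* is on the same strand and stood higher, at 34.7 CPM per kilobase against 12.6 CPM for *Kti12*. The part of its intron reads in the counts of *Kti12* was not tested. *Riox1*, a ribosomal oxygenase, rose by 0.24. *Imp3*, of the U3 small nucleolar ribonucleoprotein, was called lower with shRNA1 than with nt-shRNA (-0.25, adjusted p = 0.0224, edgeR's quasi-likelihood test) and higher with shRNA2 than with shRNA1 (0.30, adjusted p = 0.00422). It stood at 44.4 and 40.7 CPM with nt-shRNA, 35.3, 34.4 and 37.2 CPM with shRNA1 and 43.9, 47.3 and 40.2 CPM with shRNA2, so that the shRNA1 libraries were the low ones. *Rrs1*, needed for large subunit assembly, had log2 fold changes of -0.098 and 0.090 against nt-shRNA, neither called, but with shRNA2 it had 0.21 with GC offsets (adjusted p = 0.00533) and 0.18 with library size alone (adjusted p = 0.0234). On the list of 32 intronless genes of RNA and protein synthesis, 10 of them members, 29 were tested, with 6 higher and 2 lower with shRNA1 and 12 higher and 7 lower with shRNA2.

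Members that bind or process RNA held both called genes and the members of highest level, which were not called as reported. Of 12, 5 were higher and 1 lower with shRNA2, and 2 were higher and 1 lower with shRNA1. *Sf3b5*, a subunit of the SF3b complex of the U2 particle, was the one that fell, from 89.6 and 86.96 CPM with nt-shRNA to 69.8, 70.5 and 80.96 CPM with shRNA1 and 70.9, 75.2 and 68.9 CPM with shRNA2. Both KD groups lay below the controls and overlapped each other, with log2 fold changes of -0.26 and -0.30 (adjusted p = 0.0105 and 0.00159, edgeR's quasi-likelihood test). *Rnf113a2*, which encodes a spliceosomal RING protein, rose by 0.60 with shRNA2 (adjusted p = 1.4e-04) from 12.97 and 15.5 CPM to 21.5, 24.3 and 19.2 CPM. *Rpp25*, of ribonuclease P, rose by 0.37 (adjusted p = 0.00198) and *Zfp830* by 0.24.

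*Pcbp1* and *Hnrnpa0*, the members with the highest levels per kilobase, were called in none of the 3 comparisons. *Pcbp1* was at 676 and 651 CPM with nt-shRNA, 634, 662 and 684 CPM with shRNA1 and 690.5, 703 and 629.6 CPM with shRNA2, while *Hnrnpa0* was at 331 and 322 CPM, 296, 326 and 351 CPM and 350.4, 382 and 351 CPM in these groups. For *Pcbp1* all groups overlapped, and its log2 fold changes were -0.0081 and 0.023 with standard errors of 0.0638 and 0.0639. *Hnrnpa0* had -0.0077 and 0.15 (adjusted p = 0.0816 with shRNA2, edgeR's quasi-likelihood test). With GC offsets, however, shRNA2 gave 0.29 for *Hnrnpa0* (adjusted p = 2.1e-04) and 0.21 for *Pcbp1* (adjusted p = 0.00468), both past the threshold, and with library size alone *Hnrnpa0* had 0.24 (adjusted p = 0.00628). *Znhit2*, a factor linked to assembly of the U5 particle, had -0.12 and -0.077, and *Rbmxl2*, *Ddx28* and *Zcchc3* had between -0.086 and 0.12 with shRNA2, none called.

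Cell division genes held 3 higher and 0 lower members of 8 with shRNA2, and 2 higher and 1 lower with shRNA1. The lower member with shRNA1 was *Mageh1*, which had a group under the count limit and is a description. *Haspin*, the kinase that marks histone H3 at mitotic centromeres, was at 17.1 and 18.4 CPM with nt-shRNA, 23.2, 24.4 and 22.9 CPM with shRNA1 and 32.1, 34.99 and 29.8 CPM with shRNA2. The 3 groups were separate, and the log2 fold change was 0.40 with shRNA1 (adjusted p = 0.0026, quasi-likelihood test of edgeR) and 0.87 with shRNA2 (adjusted p = 2.2e-07). *Haspin* lies in *Itgae* on the opposite strand, which had a log2 fold change of -0.22 with shRNA2 at 1.05 CPM per kilobase, against 9.02 CPM for *Haspin*. *Map10*, a microtubule-associated protein, rose by 0.49 with shRNA2 (adjusted p = 7.1e-04) from 12.8 and 14.3 CPM to 18.97, 20.5 and 17.6 CPM, and *Tspyl1*, of the nucleosome assembly family, by 0.18 (adjusted p = 0.0453). *Sfn*, a 14-3-3 protein of the G2 checkpoint, was at 64.9, 75.4 and 76.8 CPM with shRNA1 and 62.5, 53.8 and 58.1 CPM with shRNA2, a difference of -0.32 on the log2 scale (adjusted p = 0.00236), with the controls at 67.5 and 64.4 CPM, below which all shRNA2 libraries lay.

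The intronless MAGE family among them had no common direction. *Mageh1*, among those with a group under the count limit, was at 12.6 and 12.1 CPM with nt-shRNA and 9.56, 8.93 and 9.34 CPM with shRNA1, with log2 fold changes of -0.41 and -0.19. *Ndn*, an imprinted gene, had 0.066 and -0.074, and *Nsmce3*, a subunit of the SMC5/6 complex, had 0.031 and 0.14, none called. Outside that family, the cyclin gene *Ccnq* had -0.030 and 0.021, not called either. Of the 8 genes tested on the MAGE list of 12, 2 were higher and 1 lower with either hairpin.

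Genes of protein turnover and folding had 4 higher and 2 lower members of 9 with shRNA1, and 5 higher and 1 lower with shRNA2. *Ccdc8*, which had a group under the count limit and is a description, was the lower member with shRNA2. It was also among those lower with shRNA1. *Hspa1b*, a heat-inducible Hsp70 chaperone, was at 10.4 and 9.20 CPM with nt-shRNA, 19.8, 21.96 and 23.6 CPM with shRNA1 and 18.9, 17.1 and 17.3 CPM with shRNA2. The shRNA1 libraries were the highest and no groups overlapped. The log2 fold changes were 1.16 with shRNA1 (adjusted p = 4.3e-07, quasi-likelihood test of edgeR) and 0.86 with shRNA2 (adjusted p = 2.4e-06), with a difference of -0.29 (adjusted p = 0.0186, which rose to 0.0889 without shRNA1 replicate 3). Its neighbour *Hspa1a*, a near-identical intronless copy below the count limit, had log2 fold changes of 1.00 and 0.62, so that the counts of both are uncertain where their sequences match. All 3 intronless chaperones listed were called higher with both hairpins. Of 13 chaperones with introns, 6 were higher and 2 lower with shRNA1, and shRNA2 gave 9 higher and 0 lower, for example *Hsph1* at 1.44, *Hspa8* at 0.98 and *Dnaja1* at 0.93.

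The *Hspa1b* promoter is shown for the heat shock element core it carries, GAANNTTC, in capitals. The 250 bases before the start site, at chr17:34959239-34959488 on the minus strand, are from RefSeq (GRCm38.p6), and the core begins 104 bases before the start.
Hspa1b: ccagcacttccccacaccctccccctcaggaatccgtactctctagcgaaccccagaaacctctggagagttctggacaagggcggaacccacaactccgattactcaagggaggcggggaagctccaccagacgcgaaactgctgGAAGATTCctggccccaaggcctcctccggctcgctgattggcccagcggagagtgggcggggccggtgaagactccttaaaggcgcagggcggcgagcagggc

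GAANNTTC was found, on either strand, in 9.43% of the members' windows and 7.86% of all windows. The 5 members that held it were *D1Pas1*, *Hspa1b*, *Ier5l*, *Jun* and *Znhit2*, of which 3 were called higher and 1 lower with shRNA2. *Klhl9*, given above, was the ligase adaptor with the largest rise. *Fem1a*, a substrate receptor of CUL2 ligases, rose by 0.32 and 0.65, from 18.8 and 18.3 CPM with nt-shRNA to 22.2, 24.04 and 22.96 CPM and 28, 31.2 and 28.2 CPM (adjusted p = 4.5e-06 with shRNA2, edgeR's quasi-likelihood test). *Otud6a*, a deubiquitinase, was called higher with shRNA1, at 0.36 (adjusted p = 0.0463) beside 0.15 with shRNA2, and the difference between the hairpins did not pass the threshold (adjusted p = 0.185). The shRNA1 call was lost with the replicate block, at 0.27 (adjusted p = 0.111), and with DESeq2. *Ccdc8*, of the 3M complex and with a KD group under the count limit, went from 13.5 and 16.4 CPM to 11.5, 11.1 and 12.4 CPM and 9.91, 11.4 and 10.4 CPM, with log2 fold changes of -0.36 and -0.50, and -0.21 with shRNA1 without nt-shRNA replicate 2. *Fbxl14*, an F-box protein, fell by 0.24 with shRNA1. *Tbcc*, a tubulin folding cofactor, had -0.059 and 0.13, not called, but with GC offsets it had 0.34 with shRNA2 (adjusted p = 0.00417).

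Receptors, small GTPases and junction genes had 3 higher and 3 lower members of 11 with shRNA2, shares close to the 27.2% and 28.7% of all genes, and 3 higher and 2 lower with shRNA1. The members counted as lower with shRNA2 include *Tmem30b*, which had its shRNA2 group under the count limit and is a description. *Fzd7*, a Wnt receptor of pluripotent cells, was at 39.9 and 41.9 CPM with nt-shRNA, 22.2, 23.1 and 26.1 CPM with shRNA1 and 19.8, 21.1 and 18.9 CPM with shRNA2. It was lowest with shRNA2 and no groups overlapped. *Fzd7* fell by 0.78 with shRNA1 (SE 0.0865, n = 3, adjusted p = 2.5e-06, edgeR's quasi-likelihood test) and by 1.04 with shRNA2 (SE 0.0878, n = 3, adjusted p = 1.3e-08), the strongest fall of any member. The difference between the hairpins was -0.26 (adjusted p = 0.0218, and 0.109 without shRNA1 replicate 3). *Fzd10*, the other Frizzled member, had -0.24 and -0.0028, not called, at 18.6 and 22.6 CPM with nt-shRNA and 20.3, 23.2 and 18.1 CPM with shRNA2. With GC offsets and the replicate block its shRNA2 value turned to 0.22 (adjusted p = 0.0483), and with GC offsets shRNA2 exceeded shRNA1 by 0.29 (adjusted p = 0.0255). Of the 6 Frizzled genes listed as intronless, 1 was higher and 3 lower with shRNA2. The list set beside them held 7 Wnt and Hedgehog receptor genes with introns, of which 4 were higher, *Fzd5* at 0.91, *Fzd6* at 0.83, *Fzd3* at 0.62 and the co-receptor gene *Lrp6* at 0.27. The 2 lower were *Lrp5* at -0.57 and *Smo* at -0.44, so that no Frizzled gene with introns was called lower, and *Fzd4* had -0.065.

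*Cldn4*, a claudin of tight junctions, was at 203 and 191 CPM with nt-shRNA, 144, 152 and 173 CPM with shRNA1 and 125, 115 and 118 CPM with shRNA2, in 3 separate groups. It fell by 0.33 and 0.72 on the log2 scale (adjusted p = 0.00168 and 9.7e-08, edgeR's quasi-likelihood test). *Tmem30b*, a flippase subunit and one of the members nearest the count limit, with its shRNA2 group under it, was at 11.7 and 10.97 CPM with nt-shRNA and 9.16, 7.35 and 8.67 CPM with shRNA2, a log2 fold change of -0.43. *Exoc8*, of the exocyst, rose by 0.57 and 0.82, from 19.1 and 22.4 CPM to 31.6, 33.5 and 27.8 CPM and 35.4, 38.9 and 35.98 CPM (adjusted p = 1.9e-04 and 7.6e-07). *Tlnrd1*, an actin-bundling protein, had 0.098 and 0.084, and *Bloc1s4*, of lysosome-related organelle biogenesis, had -0.015 and 0.21, none called. With GC offsets *Tlnrd1* was called higher with both hairpins, at 0.19 (adjusted p = 0.0440) and 0.21 (adjusted p = 0.0151), and *Bloc1s4* with shRNA2, at 0.36 (adjusted p = 0.0108), as it was with the replicate block, at 0.27 (adjusted p = 0.0400). Of 29 signalling adaptors and small GTPases listed as intronless, 1 of them a member, 27 were tested. With shRNA1 3 were higher and 2 lower, beside 13.8% and 17.1% of all genes. With shRNA2 7 were higher and 9 lower, beside 27.2% and 28.7% of all genes. The lists were written from general knowledge with no limit on exon entries, so that listed genes that are not members may have more than 1.

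**Figure D5:**
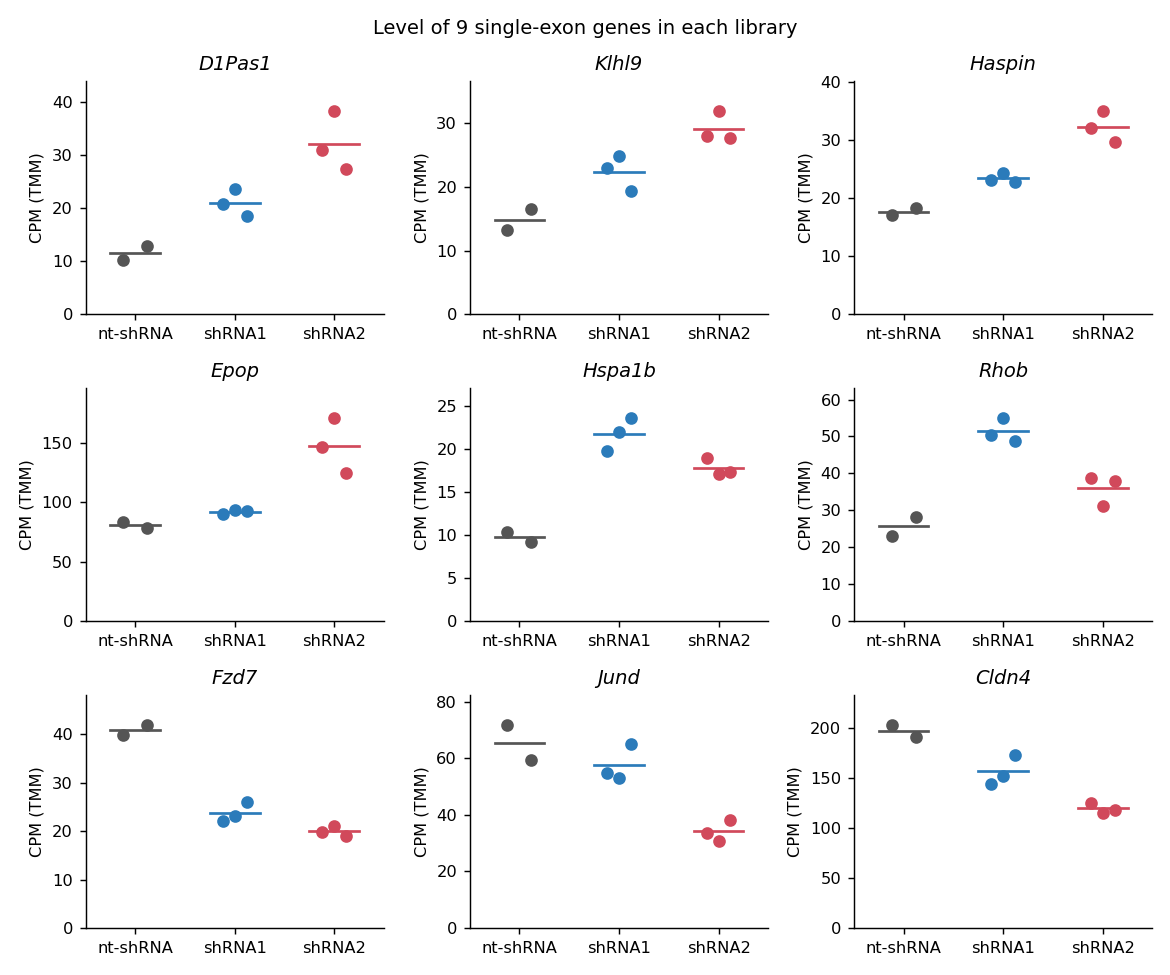
TMM-normalized CPM of 9 members in each library (points), with the mean of each group (lines), for nt-shRNA (n = 2), shRNA1 (n = 3) and shRNA2 (n = 3), each on a linear axis from 0. *D1Pas1*, *Klhl9* and *Haspin* step up from nt-shRNA to shRNA1 to shRNA2, *Epop* lies just above the controls with shRNA1 and far above them with shRNA2, *Hspa1b* and *Rhob* peak with shRNA1, and *Fzd7*, *Jund* and *Cldn4* are lowest with shRNA2.

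The 4 metabolic enzymes had 3 higher and 0 lower members with shRNA2, and 2 higher and 0 lower with shRNA1. *Mgat2*, which starts the second branch of complex N-glycans, was at 26.9 and 31.4 CPM with nt-shRNA, 40.5, 44.1 and 38.8 CPM with shRNA1 and 46.3, 50.01 and 43.6 CPM with shRNA2. Both KD groups lay above the controls, with log2 fold changes of 0.49 (adjusted p = 3.4e-04, edgeR's quasi-likelihood test) and 0.68 (adjusted p = 3.0e-06). *Pigm*, a mannosyltransferase of GPI anchor synthesis, rose by 0.36 with shRNA2 (adjusted p = 2.3e-04), and *Sephs2*, of selenoprotein synthesis, by 0.27 and 0.29. *Ado*, a thiol dioxygenase, had -0.00084 and -0.026, with standard errors of 0.0689 and 0.0691.

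Among 9 predicted or little-studied genes, 5 were higher and 1 lower with shRNA2. *Gm5580* and *Sowahc* are among those counted as higher, and *Gm5617* is the lower member. These genes had a group under the count limit and are a description. *Klhdc7a*, a kelch-domain gene, differed most between the hairpins of all members that rose, at 11.5 and 14.8 CPM with nt-shRNA, 14.3, 15.7 and 12.8 CPM with shRNA1 and 22.8, 30.8 and 21.5 CPM with shRNA2. Its shRNA1 libraries overlapped the controls, and the difference between hairpins was 0.82 (adjusted p = 1.0e-04, edgeR's quasi-likelihood test). *Prr23a3* rose by 0.34 and 0.62, and *Gm5617*, with a KD group under the count limit, had -0.38 and -0.57, from 16.04 and 15.7 CPM to 10.4, 13.4 and 12.9 CPM and 8.88, 11.6 and 11.6 CPM. *Gm18336* rose by 0.27 with shRNA2, or 0.15 without nt-shRNA replicate 1, where the call was lost. *Sowahc*, the other member nearest the count limit, had 0.31 with shRNA2, and 0.18 without shRNA2 replicate 1. *Fam43a* (0.073 and 0.093) and *0610012G03Rik* (-0.045 with shRNA2) were not called, but with GC offsets *Fam43a* was called higher with both hairpins, at 0.20 (adjusted p = 0.0444) and 0.28 (adjusted p = 0.00340).

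Place in the genome was a further feature that the rule had not used. The single exon of 14 members lay inside another protein-coding gene, 6 of them on the same strand, and 17 members overlapped an exon of another gene. Of these 14, 8 were higher and 0 lower with shRNA2, beside 27.2% and 28.7% of all genes, at a median log2 fold change of 0.49, and among the 64 other members 32 were higher and 9 lower, at a median of 0.21. The hosts called with shRNA2 went both ways. *Spef1*, around *Cenpb*, rose by 1.32, *H13*, around *Mcts2*, by 0.43, *Prkg1*, around *Cstf2t*, by 1.69, and *Awat2*, around *Otud6a*, by 0.89. *Txndc12*, around *Kti12*, fell by 0.66, *Osbpl10*, around *Rps27rt*, by 1.02, and *Dus2*, around *Ddx28*, by 0.27. Per kilobase of exon, *Prkg1* stood at 0.0426 CPM and *Awat2* at 0.307 CPM, against 16.6 CPM for *Cstf2t* and 15.5 CPM for *Otud6a*. *Osbpl10* stood at 4.84 CPM against 56.2 CPM for *Rps27rt*. Other hosts stood above the member inside, *Txndc12* at 34.7 CPM against 12.6 CPM for *Kti12* and *Dus2* at 10.3 CPM against 8.54 CPM for *Ddx28*. Reads from host introns would count for the member inside, whatever the strand, and this was not tested further. With shRNA1, 6 of the 14 were higher and 1 lower, and 14 of the 64 others were higher and 8 lower, beside 13.8% and 17.1% of all genes.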

How the data were processed

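RNA from 8 libraries was poly(A) selected and sequenced in pairs of 100 bases. The authors aligned reads with STAR to GRCm38 and deposited raw counts per gene, made with featureCounts 1.6.2 on GENCODE M24 exons. Strand was ignored, and fragments that aligned to several places or overlapped several genes were not counted. The deposited table also gives exon entries and an exonic length per gene, the other quantity used here. Names and biotypes came from GENCODE M21 by Ensembl ID (55144 matched).

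The counts were fitted with edgeR 4.0.16 (R 4.3.3), using all 8 libraries, filterByExpr with a minimum count of 10, TMM scaling, the quasi-likelihood test and Benjamini-Hochberg adjustment at 0.05 over 17445 genes. On simulated counts for shRNA2 against nt-shRNA, 198 of 200 genes changed by 2-fold were recovered, with 5 false calls among 14787 genes. The simulation gave every gene the same dispersion and left all other genes unchanged. It therefore does not bear on smaller fold changes, or on data in which many genes move, as here. The members, gene lists and roles were chosen with earlier results of these data known. Named members were the 8 higher and 8 lower with the smallest adjusted p in each comparison, the 5 of highest level, the 2 genes on each side of the limit and those on the lists, and further members were named, after their values were seen, to account for each role. Copies were found with BLAST 2.17.0 on coding sequences, in place of the protein comparison first planned. Promoters came from RefSeq (GRCm38.p6). The 3-count level covers counting error only. Alternatives were DESeq2 1.42.0, other scalings and filters, offsets for length or GC content, a replicate block, other membership rules and leaving out each library.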

Additional observations from a re-analysis of the deposited data

How the results depend on the processing

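The balance of higher over lower members held under every alternative run, but counts and medians moved. With shRNA1 the reported values were 20 higher and 9 lower of 78, and a median of 0.093. Library size alone gave 34, 4 and 0.21, and GC offsets with the replicate block 35 higher and a median of 0.15. Other membership rules changed the number of genes counted. A limit of 1000 counts gave 31 higher of 118, and a limit of 5000 counts 9 higher and 5 lower of 40. Members with 1 merged block had 29 higher and 20 lower of 116, and leaving out near copies gave 11 higher of 59. In the main fit 13.8% of all genes were higher and 17.1% lower. With shRNA2 the reported values were 40 higher and 9 lower of 78, and a median of 0.24. A limit of 1000 counts gave 62 higher and 16 lower of 118, and a median of 0.28. A limit of 5000 counts gave 20 and 4 of 40 and 0.16, and 1 merged block 55 and 21 of 116 and 0.18. In the main fit 27.2% of all genes were higher and 28.7% lower with shRNA2. The shRNA2 median was 0.33 with library size alone, 0.22 with no filter, 0.26 with at least 10 counts in every library, 0.29 with length offsets, 0.31 with these and the block, 0.27 with GC offsets, 0.29 with these and the block, 0.15 without near copies and 0.21 without members inside a coding gene. Between the hairpins, 27 were higher and 9 lower of 78, beside 16.9% and 18.7% of all genes. A limit of 5000 counts gave 14 and 5 of 40 there, and 1 merged block 38 and 14 of 116. Rules that changed the number of members moved the counts by that as well, and what else caused these shifts was not tested. The GC offsets and the removal of members inside genes, or of the 6 with a group under the count limit, were chosen after seeing the data.

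Leaving out 1 library gave 9 to 22 higher and 5 to 10 lower members with shRNA1 (median 0.054 to 0.13), 31 to 42 and 8 to 10 with shRNA2 (median 0.20 to 0.27), and 20 to 31 and 7 to 10 between the hairpins (median 0.13 to 0.17). Without nt-shRNA replicate 1, shRNA1 gave 9 higher and 5 lower, without shRNA1 replicate 2 it gave 12 higher, and without shRNA1 replicate 1 it gave 5 lower. Over all 17445 genes, the deviations of same-numbered libraries had correlations from -0.026 to 0.074, and the main fit did not pair them. A measure over all genes cannot exclude a shared effect in part of them. In its qPCR the paper set each KD replicate against the matching control replicate. The replicate block gave 25 higher and 10 lower with shRNA1, 41 and 11 with shRNA2, and 30 and 9 between the hairpins, at medians of 0.099, 0.24 and 0.16. Over all genes with shRNA1, the block gave 2694 higher and 3324 lower, in place of 2407 and 2981. With the block *Jund* was called lower with shRNA1 (-0.27, adjusted p = 0.00658) and *Sfn* lower with shRNA2 (-0.20, adjusted p = 0.0421), in edgeR's quasi-likelihood test. DESeq2 gave 17 and 9, 35 and 9, and 25 and 9. Under GC offsets with the block the sign turned for *Pcbp1* with shRNA1 (0.16, adjusted p = 0.0332), and for *Fzd10* (0.22, adjusted p = 0.0483) and *Thap11* (0.18, adjusted p = 0.0198) with shRNA2, in edgeR's quasi-likelihood test, none of which was called in that comparison as reported. Counts of 2 control libraries limit all comparisons with nt-shRNA.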
